A study of Homo sapiens with 2 samples.

Results

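Prefoldin is the cytosolic chaperone that catches newly made actin and tubulin and passes them to the ring-shaped chaperonin CCT. It needs no ATP, and is built from 2 alpha-type subunits, VBP1 (also called PFDN3) and PFDN5, and 4 beta-type subunits, PFDN1, PFDN2, PFDN4 and PFDN6, each present once in the hexamer. UXT is an alpha-type relative outside this hexamer. It belongs to a prefoldin-like complex with URI1 that shares PFDN2 and PFDN6 and works with the R2TP complex in assembling larger machines such as RNA polymerases. The 7 genes were taken by name from a deposited table of 332 chaperone and co-chaperone genes. A separate row named UTX is not UXT: its identifier belongs to LEUTX, and it had 1 read in each library.

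The cells sequenced were HEK293 Flp-In T-Rex. HEK293 is an immortal line from embryonic kidney, and this version holds a recombination site into which a transgene under tetracycline control can be placed. The labels give 1 group of 2 libraries, numbered as replicates 1 and 2, with no treated or control group. For the series, stable lines were made that express GFP or HSPA1A with a 3xFLAG-HBH tag after tetracycline was added, but the sample labels name neither transgene nor drug. HEK293T is the name used for the cells in the extraction protocol. The table holds chaperone genes only, so the identity of the line was not checked from markers.

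The library totals behind the authors' RPKM (reads per kilobase of gene, scaled to library size) were 6828264 reads in replicate 1 and 4445676 in replicate 2. The 7 genes took 1875 of the 192352 reads in the table in replicate 1, or 0.975% (95% Wilson interval 0.932 to 1.02), and 1133 of 126085 in replicate 2, or 0.899% (0.848 to 0.952). The libraries were kept as 2 replicates, as numbered in the labels. A chi-square test over 275 genes separated their counts (chi-square 1279, p = 2.44e-129), which does not tell how many genes differ. Tested singly, 4.69% of the 320 genes with reads were called. No source says that the libraries came from separate cultures, so their spread may be technical. All intervals cover counting error only, and a level in bulk RNA does not tell more expressing cells from more RNA per cell.

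In reads not yet divided by length, the alpha-type VBP1, first known as a binding partner of the VHL tumour suppressor (ENSG00000155959, chromosome X, 155197007 to 155239841, plus strand, GRCh38), had 830 reads in replicate 1 and 439 in replicate 2. The other alpha-type subunit, PFDN5, also known as a protein that binds MYC (ENSG00000123349, chromosome 12, 53295291 to 53299452, plus strand), had 26 and 12 reads. These were the highest and the lowest counts among the 7 genes in both libraries. The coding sequences of this pair, on which the class comparison turns, begin as follows in the GENCODE 29 transcripts VBP1-201 and PFDN5-214, with the start codon in capitals.
VBP1: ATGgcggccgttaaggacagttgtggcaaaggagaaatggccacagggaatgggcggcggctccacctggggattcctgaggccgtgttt
PFDN5: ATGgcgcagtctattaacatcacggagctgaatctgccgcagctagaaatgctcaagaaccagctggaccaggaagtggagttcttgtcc

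The beta-type subunits and UXT lay between these counts. PFDN1 (ENSG00000113068, chromosome 5, 140245035 to 140303113, minus strand) had 268 and 172 reads. PFDN4 (ENSG00000101132, chromosome 20, 54208087 to 54228052, plus strand) had 237 and 163 reads. UXT (ENSG00000126756, chromosome X, 47651796 to 47659180, minus strand) had 235 and 153 reads. The remaining beta-type pair, which is shared with the UXT complex, was lower in both libraries. PFDN6 (ENSG00000204220, chromosome 6, 33289302 to 33298401, plus strand) had 168 and 119 reads, and PFDN2 (ENSG00000143256, chromosome 1, 161100556 to 161118055, minus strand) had 111 and 75.

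Levels per length were compared first on the authors' scale, which divides the reads by the genomic span of the gene, introns included. UXT stood at 4.66 RPKM in each replicate. It was followed by PFDN6 at 2.70 and 2.94 RPKM and VBP1 at 2.84 and 2.31 RPKM, a pair whose order changed between the libraries. PFDN4 stood at 1.74 and 1.84 RPKM, and PFDN2 at 0.929 and 0.964 RPKM. PFDN5, at 0.915 and 0.649 RPKM, and PFDN1, at 0.676 and 0.666 RPKM, were lowest and also changed places. By mean RPKM per kilobase of span, UXT ranked 54, PFDN5 167 and PFDN1 178 among the 332 genes. Per kilobase of 1 coding transcript per gene, UXT ranked 40, PFDN1 67 and PFDN5 219.

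Of the 6 pairs of neighbours in this order, 3 were resolved, in that the exact 95% interval of their ratio excluded 1 on the same side in both replicates (intervals not adjusted for the number of pairs). UXT exceeded PFDN6 1.72 times in replicate 1 (interval 1.41 to 2.11) and 1.58 times in replicate 2 (1.24 to 2.03). VBP1 exceeded PFDN4 1.63 times (1.41 to 1.89) and 1.26 times (1.05 to 1.51), and PFDN4 exceeded PFDN2 1.87 times (1.49 to 2.37) and 1.90 times (1.44 to 2.54). The pairs PFDN6 and VBP1, PFDN2 and PFDN5, and PFDN5 and PFDN1 were not resolved. With 2 replicates an exact permutation test cannot go below 0.5, so no p-value over samples is given for any order.

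On the span scale 4 of the 7 genes (57.1%) had a mean of at least 1 RPKM, against 46.4% of all genes in the table, and their median was 1.79 RPKM against 0.784 RPKM for all genes. These shares rest on the length used. The span was 43.0 times the length of the coding transcript for PFDN1, 25.8 times for PFDN2 and 25.4 times for VBP1, but 4.91 times for PFDN5. For PFDN6 the span reaches beyond the main coding transcript, which covers 1632 bases, or 17.9% of it. For VBP1 the authors' span begins at 155197007, while the main coding transcript begins at 155216366 and covers 54.8%. For PFDN4 it covers 60.6%.

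**Figure D1:**
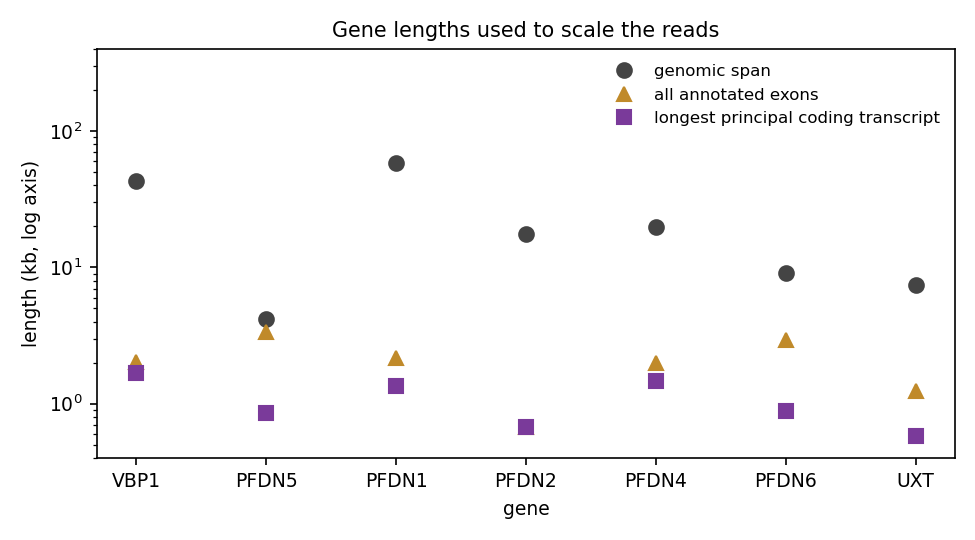
Length in kilobases (log axis) of each gene by genomic span (circles), by the union of all annotated exons (triangles) and by the longest principal coding transcript (squares, which cover the triangle of PFDN2, where both are 677 bases). The span ranges from 4161 bases for PFDN5 to 58078 bases for PFDN1, and the transcript from 574 bases for UXT to 1686 bases for VBP1.

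Reads were therefore also divided by the length of 1 coding transcript per gene, the longest one that GENCODE 29 tags as principal. On this scale VBP1 stood at 72.1 RPKM in replicate 1 and 58.6 RPKM in replicate 2, and UXT at 60.0 RPKM in both. The 4 beta-type subunits lay close together below them, with replicate values from 23.7 to 30.3 RPKM. PFDN6 stood at 29.1 ± 1.73 RPKM (SD, n = 2), PFDN1 at 28.8 ± 0.293, PFDN2 at 24.5 ± 0.642 and PFDN4 at 24.4 ± 0.946 RPKM. PFDN5 was far lower, at 4.50 RPKM in replicate 1 and 3.19 RPKM in replicate 2. No replicate value of VBP1, UXT or PFDN5 fell within the range of the beta-type subunits.

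The highest beta-type mean was 1.19 times the lowest on this scale, against 4.21 times on the span scale. Of the 6 pairs of beta-type subunits, 0 were resolved on the transcript scale and 6 on the span scale. The ratio of PFDN1 to PFDN2, for example, was 1.21 (exact 95% interval 0.966 to 1.52) in replicate 1 and 1.15 (0.871 to 1.53) in replicate 2, so ratios from just under 1 up to these upper bounds were not excluded. The same reads divided by all annotated exons put PFDN2 above PFDN1, at 1.32 times (1.05 to 1.65) and 1.39 times (1.04 to 1.83). The closeness depended on the isoform of PFDN6, which has 4 principal coding transcripts. With the shortest of them PFDN6 stood at 49.3 RPKM, the highest beta-type mean became 2.02 times the lowest, and 3 of the 6 pairs, all with PFDN6, were resolved. With the union of all annotated exons the beta-type means ran from 8.70 RPKM for PFDN6 to 24.5 RPKM for PFDN2.

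VBP1 and UXT could not be ordered on the transcript scale, with a ratio of 1.20 (1.04 to 1.40) in replicate 1 and 0.977 (0.811 to 1.18) in replicate 2. On the span scale VBP1 was below UXT, at 0.609 times (0.526 to 0.707) and 0.495 times (0.411 to 0.599), and with all annotated exons it was above, at 2.18 times (1.88 to 2.53) and 1.77 times (1.47 to 2.14). UXT exceeded PFDN6, its neighbour below, 2.15 times (1.76 to 2.64) and 1.98 times (1.55 to 2.54) on the transcript scale. This gap depended on the isoform of PFDN6. With its shortest principal transcript the ratio of UXT to PFDN6 was 1.27 in replicate 1 and 1.17 in replicate 2. That of VBP1 to PFDN6 was 1.53 and 1.14. Both intervals in replicate 2 included 1, so neither pair was resolved. PFDN4, the lowest beta-type subunit by its mean on the transcript scale, exceeded PFDN5 5.28 times (3.52 to 8.25) and 7.87 times (4.38 to 15.5) on that scale. All 7 genes reached 1 RPKM with the transcript length, as did 77.1% of the table. With all annotated exons 6 of 7 did, as did 74.4% of the table, and PFDN5 was the exception at 0.963 RPKM.

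**Figure D2:**
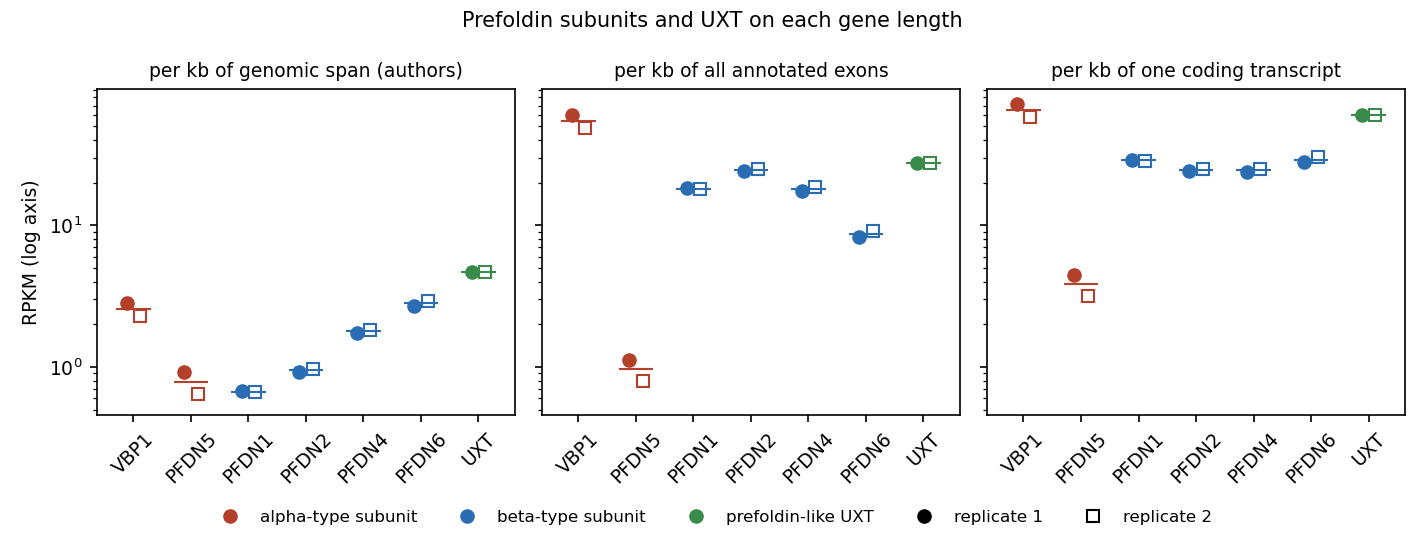
RPKM (log axis) of each gene in replicate 1 (filled circles) and replicate 2 (open squares), with the mean as a line, scaled by genomic span (left), by all annotated exons (middle) and by 1 coding transcript (right). Alpha-type subunits are red, beta-type blue and UXT green. On the right the beta-type subunits lie from 23.7 to 30.3 RPKM, between PFDN5 and the pair VBP1 and UXT.

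The class comparison asked whether alpha-type and beta-type subunits of the hexamer differed in level. On the authors' scale the mean log2 RPKM of the alpha-type subunits minus that of the beta-type subunits was 0.30 in replicate 1 and -0.16 in replicate 2. The mean difference of 0.07 ± 0.32 (SD, n = 2) was smaller than the spread between replicates. With the transcript length the difference was -0.53 and -0.99, alpha-type lower in both replicates, and with all annotated exons it was -0.95 and -1.41. Genes are not replicates of a class, so no test was made over them.

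With the transcript length or all annotated exons, the class means hid an alpha-type pair at opposite ends of the hexamer. On the span scale PFDN6 was highest and PFDN1 lowest by mean. VBP1 and PFDN5 lay next to them there, and neither of these pairs was resolved. VBP1 exceeded PFDN5 3.10 times (exact 95% interval 2.10 to 4.78) in replicate 1 and 3.55 times (2.01 to 6.93) in replicate 2 per kilobase of span. Per kilobase of transcript the ratio was 16.0 (10.9 to 24.7) and 18.4 (10.4 to 35.8), and per kilobase of all exons 53.5 (36.2 to 82.3) and 61.3 (34.7 to 119). VBP1 was higher on each of these scales in both libraries. Without PFDN5 the alpha-type minus beta-type difference on the transcript scale became 1.29, and without VBP1 it became -2.81 (log2 RPKM), so its direction depended on which alpha-type gene was kept.

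As shares of the hexamer's summed RPKM on the transcript scale, VBP1 took 39.8% in replicate 1 and 34.3% in replicate 2. PFDN5 took 2.48% and 1.87%. The beta-type subunits each took between 13.1% and 17.7%, and together 57.7% and 63.8%. On the span scale PFDN5 took 9.34% and 6.93%, and single beta-type subunits between 6.90% and 31.4%. There the beta-type subunits together took 61.7% and 68.4%, and the alpha-type subunits 38.3% and 31.6%.

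The low PFDN5 value was set beside what the annotation says of this gene. GENCODE 29 lists 20 transcripts, of which 6 are protein-coding and 10 are retained introns, so the union of its exons is 3.99 times its longest principal transcript. Its shortest principal transcript gives 5.55 RPKM, still below every beta-type subunit. An antisense gene, AC073611.1, covers 19.1% of its span on the other strand, with 0 exonic bases shared. The table also names 1 transcript per gene, and for PFDN5 this is PFDN5-208, a retained-intron transcript of 598 bases in GENCODE 29. For PFDN2 and PFDN4 it also names noncoding forms, processed transcripts of 408 and 659 bases. For PFDN6 and VBP1 it names coding forms of 1915 and 1547 bases, against 884 and 1686 bases in the transcripts used here. Levels with the named lengths were not computed, so the closeness of the beta-type subunits was not tested on them. The coordinates in the table are close to those of the whole gene in GENCODE 29. It is not known from the labels or headers whether the reads refer to the gene or to the named transcript, for these genes as for PFDN5.

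Reads that match several genes could also bear on these counts, and neither labels nor headers state how they were treated. In windows of 50 bases, 0 of the 798 windows of the PFDN5 transcript occurred in a transcript of another gene. A processed copy, AL592148.1 (chromosome 1, 222641414 to 222641858, minus strand), was identical over 89.3% of 447 aligned bases. The windows do not bear on reads shorter than 50 bases. Bases 19 to 78 of the PFDN5 coding sequence are shown beside AL592148.1. The 3 bases that differ within this stretch are in capitals.
PFDN5: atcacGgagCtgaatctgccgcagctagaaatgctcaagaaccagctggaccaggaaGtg
AL592148.1: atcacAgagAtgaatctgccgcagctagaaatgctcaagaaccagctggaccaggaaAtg

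PFDN1 was the 1 member with windows identical to a processed copy. AC091492.1 (chromosome 3, 12328003 to 12328274, plus strand) shares 60 of the 1303 windows of the PFDN1 transcript (4.60%), through the following run of 109 identical coding bases, within which a read fits both loci.
PFDN1 and AC091492.1: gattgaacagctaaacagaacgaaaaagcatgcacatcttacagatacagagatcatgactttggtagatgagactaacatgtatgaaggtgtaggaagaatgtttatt

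VBP1, PFDN2 and PFDN4 had 0 windows in other genes' transcripts. PFDN6 shared 21.2% of its windows with WDR46 and UXT 10.9% with UXT-AS1, each on the opposite strand, where only a count by strand separates the reads. RGL2, also on the opposite strand, spans 74.2% of PFDN6 and shares 24.5% of its exonic bases. UXT-AS1 shares 26.5% of the exonic bases of UXT. CYSTM1 spans 63.7% of PFDN1 on the opposite strand but shares 1.81% of its exonic bases. The library kit keeps strand, per the labels, but they do not state whether strand was used in counting. The values of PFDN6 and UXT are uncertain to this extent through shared exons. For PFDN1 and PFDN5 the overlap lies mostly outside shared exons. The sources do not state whether reads in introns were counted, so these values are uncertain as well. Counting windows shared in either orientation, 195 of 332 genes had at least 1, and 92 had over 10% of their windows shared.

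UXT was compared with the hexamer as a whole. It exceeded the median hexamer subunit by 1.84 ± 0.05 on the log2 RPKM scale per kilobase of span (SD, n = 2), which is 3.58-fold, and by 1.19 ± 0.04 per kilobase of transcript, which is 2.28-fold. With all annotated exons the difference was 0.62 ± 0.02. UXT was higher in both replicates on all of these scales.

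Its partners in the prefoldin-like complex were lower than UXT on the transcript scale. URI1, the scaffold of that complex, had 1012 and 647 reads and stood at 42.6 ± 0.549 RPKM per kilobase of transcript. UXT exceeded it 1.39 times (exact 95% interval 1.20 to 1.61) in replicate 1 and 1.42 times (1.18 to 1.69) in replicate 2, while with all annotated exons the pair was not resolved, at 1.01 times (0.877 to 1.17) and 1.03 times (0.861 to 1.23). PDRG1, a beta-type relative, had 178 and 96 reads and stood at 11.9 ± 1.58 RPKM, and UXT exceeded it 4.60 times (3.77 to 5.62) and 5.55 times (4.27 to 7.24). RPAP3, the R2TP subunit that binds HSP70 and HSP90, had 424 and 279 reads and stood at 14.3 ± 0.107 RPKM. These were the 3 genes that the table held of a list of 9 symbols for this complex and R2TP, in which WDR92 and DNAAF10 are the same gene. All 3 reached 1 RPKM on the span scale, as did 46.4% of the table. The table held none of 4 CCT cofactors of the phosducin-like and thioredoxin-like families and none of 5 tubulin cofactors.

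The CCT ring, to which prefoldin delivers its clients, was higher than the hexamer. The ring's 8 genes ranged from 118 RPKM for CCT6A to 283 RPKM for CCT3 per kilobase of transcript, with a median of 204, and the hexamer's median was 26.6 RPKM. The highest hexamer subunit, VBP1, lay below the lowest ring gene on this scale, and also on the span scale, where PFDN6 at 2.82 RPKM was highest and CCT3 at 10.3 RPKM the lowest of the ring. The hexamer median minus the ring median was -2.94 ± 0.04 log2 RPKM per kilobase of transcript (SD, n = 2) and -4.37 ± 0.10 per kilobase of span. These correspond to hexamer medians 7.70-fold and 20.6-fold lower. The highest and lowest means differed 17.0 times within the hexamer and 2.39 times within the ring per kilobase of transcript, and 4.21 and 4.10 times per kilobase of span. The 17.0 rests on PFDN5, at 3.84 RPKM per kilobase of transcript. The other hexamer subunits ran from 24.4 RPKM for PFDN4 to 65.3 RPKM for VBP1 on that scale. These are descriptions of 2 libraries, with no test between the lists.

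**Figure D3:**
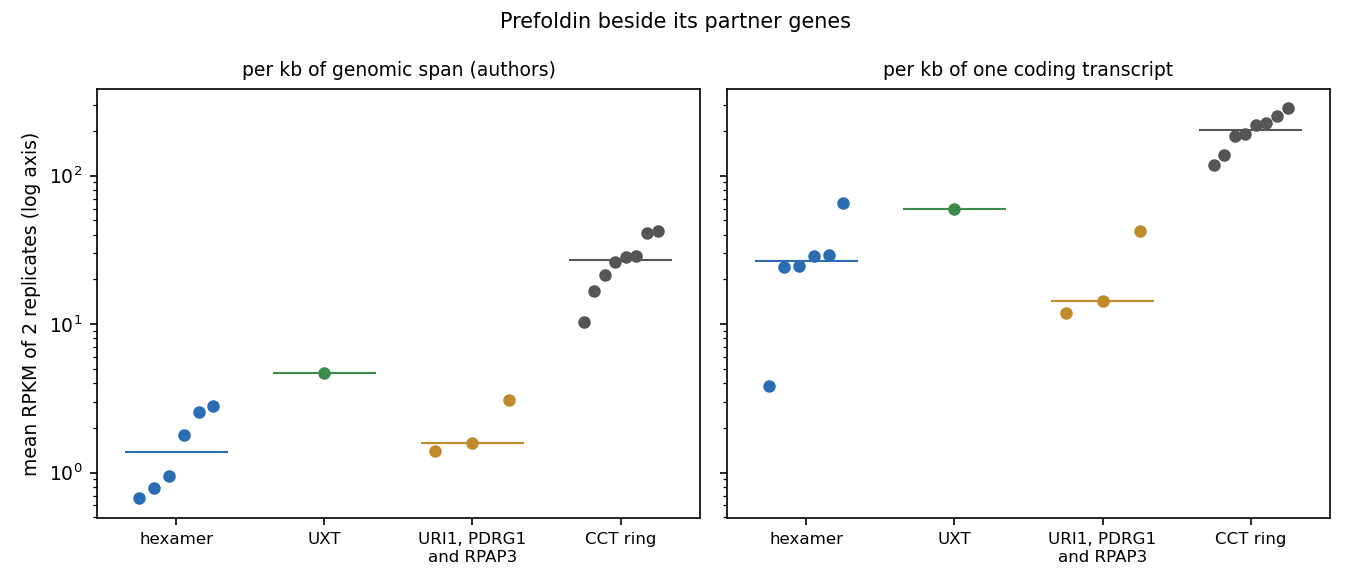
Mean RPKM of the 2 replicates (log axis) per kilobase of genomic span (left) and of 1 coding transcript (right). Each point is a gene and each line the median of its group, for the 6 hexamer subunits, UXT, the partners URI1, PDRG1 and RPAP3, and the 8 CCT ring genes. All ring genes lie above all hexamer subunits, while UXT lies above the hexamer median.

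The genes nearest to the hexamer median in both replicates, by Euclidean distance of log2(RPKM + 1) over the 2 libraries, were DNAJB1 (1.38 RPKM, distance 0.047), CDC16 (1.32 RPKM, 0.052) and PPIG (1.31 RPKM, 0.057) on the span scale. Those nearest to UXT were DNAJA2 (4.67 RPKM, 0.022), GRPEL1 (4.68 RPKM, 0.041) and BBS10 (4.84 RPKM, 0.073). With 2 samples this measures a like level, not a shared pattern of change. With the transcript length the nearest became DNAJA2, DNAJB1 and AFG3L2 for the hexamer and DNAJC8, ST13 and HSPA4 for UXT.

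The last comparison asked whether the genes differed between the libraries beyond counting error. In an exact binomial test fitted over the 320 genes of the table with reads and adjusted by Benjamini-Hochberg over all of them, 1 of the 7 genes was called, against 4.69% of all genes, and it was lower in replicate 2, as were 2.81% of all genes. At an unadjusted p under 0.05 the same count was 1 of 7, against 17.2% of all genes. This gene was VBP1, at 122 RPM (reads scaled to the library total) in replicate 1 and 98.7 in replicate 2. Its log2 ratio of replicate 2 over replicate 1 was -0.30 (adjusted p = 0.0148, exact binomial test), and the ratio itself was 0.812 (exact 95% interval 0.722 to 0.913).

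PFDN5 had a log2 ratio of -0.46 (adjusted p = 0.814, exact binomial test), with a ratio of 0.709 (0.326 to 1.46), a range that its 26 and 12 reads could not narrow. The beta-type subunits had log2 ratios from -0.02 for PFDN1 to 0.12 for PFDN6, with adjusted p from 0.903 to 1.0, and UXT one of 0.00 (adjusted p = 1.0, exact binomial test). Their intervals reached at most a ratio of 1.40 for PFDN2 above 1 and 0.764 below. URI1, PDRG1 and RPAP3 were not called. Of the 8 CCT ring genes 2, CCT2 and CCT3, were called lower in replicate 2, against 2.81% of all genes. Their ratios were 0.903 and 0.904. CCT2 had 3316 and 1949 reads and CCT3 4366 and 2570, against medians of 198 and 129 reads over all genes. Whether depth bears on these calls was not tested. The log2 ratio was negative for 5 of the 8 ring genes, against 174 of the 320 genes with reads. The alpha-type share of the hexamer's reads was 52.2% in replicate 1 and 46.0% in replicate 2. The test compares 2 libraries of 1 group, not conditions.

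**Figure D4:**
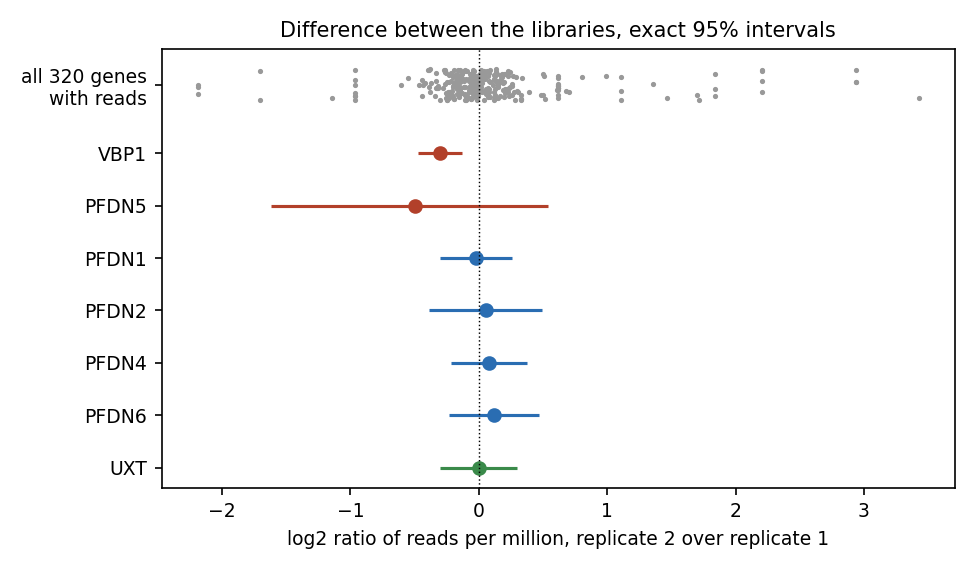
Log2 ratio of RPM, replicate 2 over replicate 1, for the 7 genes with exact 95% intervals, below the 320 genes with reads (grey points, with 0.5 reads added to each count). The interval of VBP1 lies below 0, and those of the other 6 genes include 0.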

How the data were processed

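Stranded libraries were prepared from Trizol-extracted total RNA, per the labels' protocols. STAR 2.6.0b, Bowtie2 2.4.2 and Trim Galore 0.6.4 appear in the submitters' processing notes beside GRCh38, without their roles. Not given in the sources used here are the counting program, annotation release and use of strand. Per the file headers and values, the authors deposited read counts for each replicate and their mean RPKM for 332 genes. The prefix NHS of the count columns is not explained there. The authors' RPKM is the count per kilobase of genomic span scaled to the library total, as a mean of both replicates, and these totals were recovered by least squares (largest relative misfit 7.62e-14). Which reads the totals include is not stated.

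RPKM per replicate was computed from counts and totals, and again with lengths from GENCODE 29, matched by gene identifier. Log2 RPKM differences carry no pseudocount, while 1 RPKM was added for the distances to the nearest genes. Neighbours in the order of levels were compared by exact Clopper-Pearson intervals of the read ratio. Reads were compared between libraries by a two-sided exact binomial test over all genes, with Benjamini-Hochberg adjustment and a threshold of 0.05. It was tested on simulated counts. Log2 ratios of this test have 0.5 reads added, and the intervals do not. With 1 group there was no count model of groups to fit. Named genes were the 7 members, the listed partner genes in the table and the 3 genes nearest in level to the hexamer median and to UXT; WDR46, RGL2, CYSTM1 and the other overlapping or similar loci were named after the annotation was searched. The members and lists were chosen with earlier results of these data known. Protein sequences were not used here, so the planned protein identity was not computed. Sequences printed are from the GENCODE 29 transcripts. Alternatives were other lengths, pseudocounts, thresholds, filters, library scalings, and each replicate or subunit left out. Python 3.11.15, NumPy 2.4.6, pandas 2.3.3, SciPy 1.17.1 and matplotlib 3.10.9 were used.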

Additional observations from a re-analysis of the deposited data

How the results depend on the processing

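Of 77 recalculated values, 44 kept their direction and call or stayed within the replicate spread or 1.5 times a count, 31 moved, and 2 single-gene log2 ratios reversed. Among those that moved or stayed, the uncalled difference of alpha-type minus beta-type took the opposite sign in 13 of its 22 alternatives, while UXT minus the hexamer median and the hexamer minus the CCT ring kept their sign in all 8 of theirs. The shortest principal transcript, and the transcript length with a subunit left out, were added after seeing the data. The cause of a change was not tested beyond the change of length or members itself. Alpha-type minus beta-type, 0.07 per kilobase of span, became -1.18 with all annotated exons, -0.76 with the coding transcript, -0.69 with its shortest principal form, -0.56 with reads alone and 0.65 with UXT counted as alpha-type. Per kilobase of span it was -0.80 without VBP1, 0.94 without PFDN5, -0.26 without PFDN1 and 0.43 without PFDN6. Per kilobase of transcript it was -2.81, 1.29, -0.72 and -0.72 without these genes, -0.80 without PFDN2 and -0.80 without PFDN4. Leaving out either replicate, it ranged from -0.16 to 0.30. UXT minus the hexamer median, 1.84, was 1.28 and 1.76 with pseudocounts of 1 and 0.1 RPKM, 0.62 with all exons, 1.19 with the transcript, 1.17 with its shortest form, 0.19 with reads alone, and from 1.81 to 1.87 in single replicates. The hexamer minus the CCT ring, -4.37, was -3.58 and -4.26 with these pseudocounts, -2.70 with all exons, -2.94 with the transcript, -2.93 with its shortest form, -3.93 with reads alone, and from -4.44 to -4.30 in single replicates. Neighbours resolved were 3 to 5 with either replicate left out, 5 of them in replicate 2 alone, against 3 in both. At 0.5 RPKM 7 genes were counted, at 5 RPKM 0, and with the transcript length at 1 RPKM 7, against 4. VBP1 stayed called between the libraries in all 3 alternatives of that test (adjusted p from 0.00940 to 0.0331, exact binomial test). The reversed log2 ratios were near 0 and not called: 0.0017 for PFDN1 after replicate 2 was rescaled to the median gene, and -0.0081 for UXT with the table's reads as exposure. Depth limits PFDN5 most, at 26 and 12 reads. No paired analysis was possible because the samples form a single group.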
